A study of Mus musculus with 18 samples.

Results

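Genes that make, process, present or release transforming growth factor beta (TGF-b) were followed across CD4+ T cell cultures of the mouse: the ligands Tgfb1 and Tgfb3, the protease gene Furin, the presenting receptors Lrrc32 and Nrp1, and the integrin subunit Itgb8. They are a named set with roles in one pathway, chosen with earlier results of these data known, taken from the tables by symbol, and are 6 of the 22783 gene symbols in the table of experiment 1 and 6 of the 16639 in that of experiment 2. All cells were naive splenic CD4+ T cells of C57BL/6 mice, sorted by flow cytometry, stimulated with antibodies to CD3 and CD28 and collected on day 4. In experiment 1, controls carried the Cd4Cre transgene alone (WT), and knockout cells carried Cd4Cre together with homozygous floxed alleles Egln1fl/fl, Egln2fl/fl and Egln3fl/fl (tKO). TGF-b was added at 0, 0.2 or 2 ng/ml to each genotype, with 2 libraries per group. In experiment 2, cells of wildtype mice received 2 ng/ml TGF-b with vehicle or with 1 mM DMOG, with 3 libraries per group. Egln1, Egln2 and Egln3 encode the PHD prolyl hydroxylases, which use oxygen to mark HIF transcription factors for degradation. Cd4Cre recombines floxed alleles from the thymocyte stage onward, so every T cell lineage that passes through CD4 expression is affected. DMOG (dimethyloxaloylglycine) enters cells and blocks dioxygenases that need 2-oxoglutarate, of which the PHD enzymes are only some.

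TGF-b is made as a precursor that furin cuts in the secretory pathway. The cut propeptide stays wrapped around the cytokine and keeps it latent. GARP, the product of Lrrc32, tethers latent TGF-b to the surface of activated regulatory T cells and of platelets. Neuropilin-1, the product of Nrp1, is a co-receptor for semaphorins and VEGF that also binds latent and active TGF-b, and it is used as a marker of regulatory T cells that arise in the thymus. The integrin formed by the Itgav and Itgb8 products pulls on the propeptide and frees the cytokine. RNA levels were measured here, not the amount of latent or active TGF-b protein.

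RefSeq promoter windows on the GRCm38.p6 build were matched for 4 of the 6 genes, Tgfb1, Furin with 2 starts, Nrp1 and Itgb8, and not for Lrrc32 and Tgfb3. The windows of Tgfb1, Nrp1 and Furin are printed because RNA of each of these genes passed the test in at least 1 comparison of cells whose HIF degradation or TGF-b supply was altered. Each is the 250 bases before the RefSeq start, 5′ to 3′ on the gene's strand. Capitals mark GCGTG, a core of the hypoxia response element to which HIF binds, on either strand, so that it also reads CACGC.
Tgfb1, chr7:25686752-25687001, plus strand: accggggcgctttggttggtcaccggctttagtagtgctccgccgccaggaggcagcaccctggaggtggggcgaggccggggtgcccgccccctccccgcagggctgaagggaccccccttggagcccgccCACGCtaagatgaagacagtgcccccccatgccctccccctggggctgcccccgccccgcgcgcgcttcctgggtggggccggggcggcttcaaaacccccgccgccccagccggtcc
Nrp1, chr8:128358823-128359072, plus strand: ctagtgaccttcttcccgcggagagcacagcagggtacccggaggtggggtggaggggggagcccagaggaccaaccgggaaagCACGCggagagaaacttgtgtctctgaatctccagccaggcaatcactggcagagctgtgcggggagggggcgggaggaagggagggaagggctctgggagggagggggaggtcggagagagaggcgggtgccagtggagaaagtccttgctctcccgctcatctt
Furin, upstream start, chr7:80405437-80405686, minus strand: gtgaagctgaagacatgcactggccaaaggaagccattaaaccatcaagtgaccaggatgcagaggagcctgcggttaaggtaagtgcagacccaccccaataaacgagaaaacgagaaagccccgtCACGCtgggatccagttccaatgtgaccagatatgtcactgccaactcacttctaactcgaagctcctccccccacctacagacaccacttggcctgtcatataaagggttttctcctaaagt
Furin, downstream start, chr7:80402813-80403062, minus strand: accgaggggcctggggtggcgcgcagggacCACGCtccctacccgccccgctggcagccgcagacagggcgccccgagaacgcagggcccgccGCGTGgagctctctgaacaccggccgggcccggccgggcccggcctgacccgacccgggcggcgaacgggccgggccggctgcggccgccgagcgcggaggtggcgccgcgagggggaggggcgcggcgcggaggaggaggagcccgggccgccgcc
The letters GCGTG occurred 1 time before the Tgfb1 start, 1 time before the Nrp1 start, and 1 and 2 times before the Furin starts. The Itgb8 window (chr12:119238277-119238526, minus strand) held none. The other core searched, ACGTG, occurred in none of these windows. CAGAC, which holds the letters bound by SMAD proteins, occurred 2 times and 1 time before the Furin starts and 1 time before the Itgb8 start. Both strands were searched, and none of these motifs overlaps another by its letters in these windows. Of 32851 windows of the same length in the table, 16.57% held ACGTG, 28.16% held GCGTG, 38.6% held at least 1 of these cores and 42.19% held CAGAC. A match is a run of letters and not a bound site.

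The libraries of experiment 1 had FPKM sums from 548974 to 856147 and those of experiment 2 from 386382 to 443888. Low values gave relative reads per FPKM of 0.442 to 1 in experiment 1, lowest in tKO at 0.2 ng/ml replicate 2, and of 1 to 1.36 in experiment 2, each against the first library of the table. Absolute depth is unknown. Libraries of a group correlated across genes at r = 0.960 to 0.983 and at r = 0.990 to 0.997. The labels do not say whether libraries of a group came from separate animals, so p-values measure only the spread between these libraries. Tests over doses counted the 3 libraries of a labelled series as independent, with 2 series per genotype, so their p-values may be too small. FPKM over a whole gene cannot show the loss of floxed exons: Egln2 was listed at 35.6 to 48.8 FPKM in WT and 19.9 to 39.0 in tKO, Egln1 at 20.4 to 44.3 and 92.8 to 122, and Egln3 at 5.68 to 18.7 and 77.4 to 140. The 3 libraries labelled tKO series 1 stood apart, since 4 Y chromosome genes summed to 60.5 to 67.6 FPKM in them and to 0 to 0.00800 in the other 9 libraries. The 7 T cell markers summed to 1832 to 3173 FPKM in experiment 1 and 939 to 2346 in experiment 2, and these are defining genes of the labelled cells. The macrophage gene Lyz2 was listed at 0 in every library of experiment 1. Of the other myeloid and dendritic cell genes, some were listed at low levels there, with Itgam up to 2.39, Emr1 up to 2.07 and Flt3 up to 1.08 FPKM. Others of that list were high: Cd74 at 236 to 850, H2-Ab1 at 31.6 to 519 and H2-Aa at 19.0 to 107 FPKM. The 6 platelet markers, relevant since platelets carry GARP, summed to at most 1.51 FPKM. Some RNA of B cell genes was present in experiment 1, with 6 markers summing to 14.6 to 85.5 FPKM against 0.925 to 11.3 in experiment 2.

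Tgfb1 was the most abundant of the 6 genes, with a mean of 91.9 FPKM over the libraries of experiment 1 and 130 FPKM in experiment 2, above 88.3% and 95.6% of the genes tested. Nrp1 averaged 30.2 and 32.9 FPKM, Furin 19.4 and 73.7, and Lrrc32 15.2 and 11.2. Tgfb3 averaged 0.992 and 0.290 FPKM and Itgb8 0.156 and 0.226. These last genes lay under the minimum mean of 1 FPKM set for testing, so 4 of the 6 genes were tested in each experiment. FPKM is scaled to transcript length, so these levels can be compared between genes within a table.

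Between tKO and WT averaged over the 3 doses, Nrp1 and Furin rose and Lrrc32 fell, so that 3 genes passed the test, where 27.2% of all genes tested did (13.9% higher and 13.3% lower). At a single dose 1 gene passed in each case: Lrrc32 without TGF-b, where 9.64% of all genes passed, Lrrc32 at 0.2 ng/ml, where 15.5% did, and Tgfb1 at 2 ng/ml, where 16.0% did. TGF-b at 2 ng/ml raised Nrp1 in WT (15.7% of all genes called, 7.79% higher and 7.91% lower), and raised Tgfb1, Lrrc32 and Nrp1 in tKO (18.0%). At 0.2 ng/ml Nrp1 passed in WT (1.59%), while in tKO none passed (2.48%), with Lrrc32, Nrp1 and Furin under an unadjusted p of 0.05. The 2 minus 0 ng/ml effect differed between the genotypes for Lrrc32 (2.97% of all genes). DMOG lowered Lrrc32 and Nrp1 and raised Furin in an experiment where 60.8% of all genes passed, 27.7% higher and 33.2% lower. The median log2 fold change of the 4 tested genes was 0.34 over doses and -1.03 with DMOG, against -0.02 and -0.03 over all genes.

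**Figure D1:**
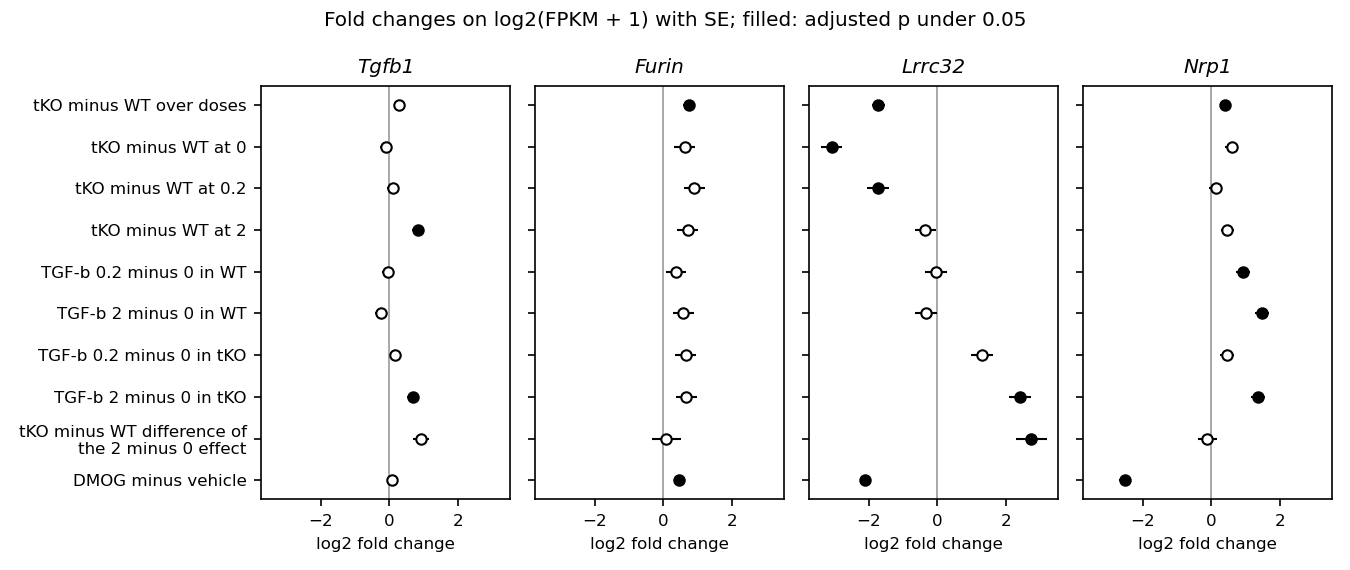
Log2 fold changes on the log2(FPKM + 1) scale (x axis) with SE bars for the 4 tested genes in the 10 comparisons (y axis); filled points have an adjusted p under 0.05. Lrrc32 runs from -3.09 between tKO and WT without TGF-b to 2.75 for the genotype difference of the 2 minus 0 ng/ml effect. For 2 against 0 ng/ml TGF-b in tKO it is at 2.43. Nrp1 is at -2.54 with DMOG but at 0.40 between tKO and WT over doses.

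Tgfb1 encodes the main TGF-b of lymphocytes (chr7:26472020-26490015 on mm9, as deposited). In WT its level was 92.1 and 82.3 FPKM without TGF-b, 78.7 and 92.2 at 0.2 ng/ml, and 82.3 and 66.0 at 2 ng/ml (replicates 1 and 2 throughout). In tKO it was 85.4 and 76.9, then 97.7 and 86.2, then 124 and 139 FPKM. The tKO libraries at 2 ng/ml lay above all 10 others, and the other groups overlapped their neighbours in the order of means. The mean at 2 ng/ml was 132 ± 10.4 FPKM in tKO and 74.2 ± 11.5 in WT (SD, n = 2 each), a ratio of 1.77. In limma's moderated test on log2(FPKM + 1), with Benjamini-Hochberg adjustment over all genes tested, this was 0.82 ± 0.17 on the log2 scale (SE, adjusted p = 0.00581). Within tKO, 2 ng/ml TGF-b raised Tgfb1 by 0.69 ± 0.17 on the log2 scale (adjusted p = 0.0147), whereas in WT the change was -0.24 ± 0.17 (adjusted p = 0.391). The difference between these responses was 0.93 ± 0.24 with an adjusted p of 0.0585, short of the threshold. Both calls rested on few libraries: the genotype call at 2 ng/ml was lost without replicate 2 of WT (adjusted p = 0.0694) or of tKO (0.0693), and the TGF-b call in tKO was lost without tKO replicate 2 at 0 or at 2 ng/ml (0.122 each) or replicate 1 at 2 ng/ml (0.0591). No change passed without TGF-b (-0.10 ± 0.17) or at 0.2 ng/ml (0.11 ± 0.17), and over the 3 doses the value was 0.28 ± 0.10 (adjusted p = 0.0556). With DMOG the libraries ran from 112 to 170 FPKM and with vehicle from 111 to 141, so the groups overlapped (log2 fold change 0.07 ± 0.14, adjusted p = 0.676).

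**Figure D2:**
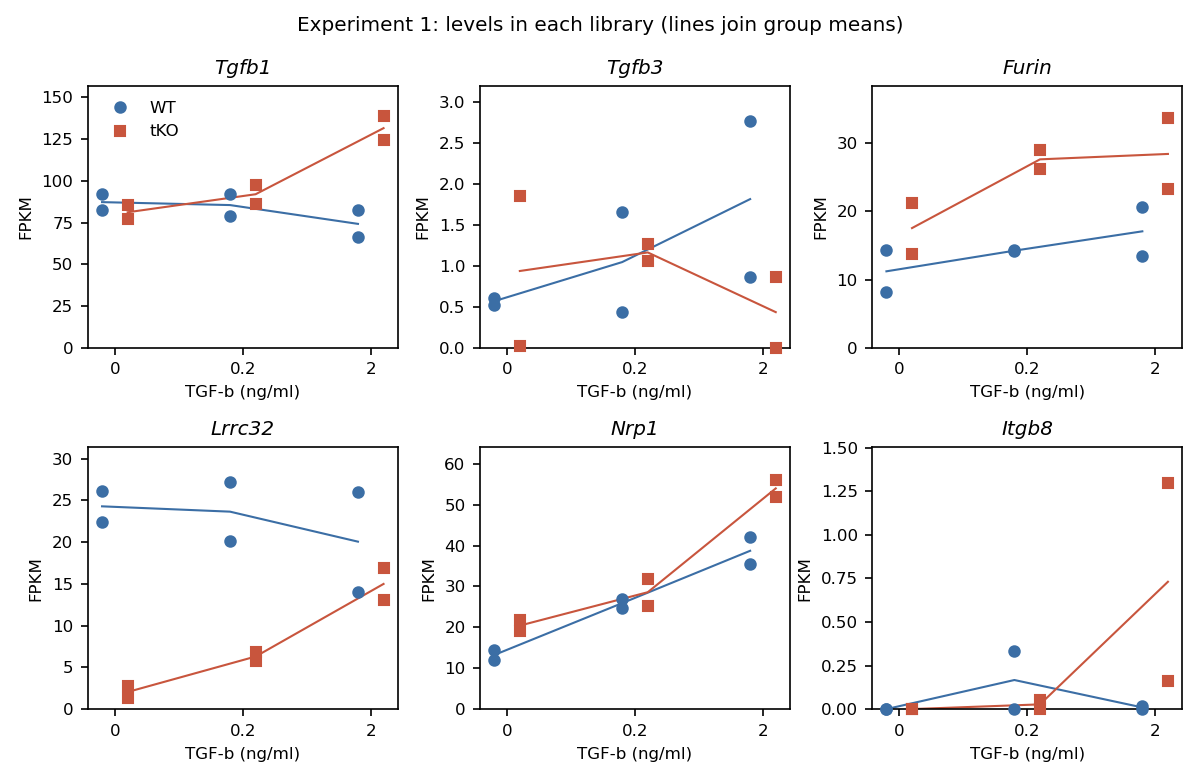
FPKM of the 6 genes (y axis, one scale per gene) against the TGF-b dose (x axis, 3 categories) in experiment 1. Points are libraries of WT (circles) and tKO (squares), and lines join the means of 2 libraries; Lrrc32 in tKO climbs from a mean of 2.05 to 15.0 FPKM, and Nrp1 climbs in both genotypes.

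Tgfb3 encodes a ligand that is scarce in most T cells (chr12:87397692-87419991). In WT it was listed at 0.611 and 0.522 FPKM without TGF-b, 0.436 and 1.65 at 0.2 ng/ml, and 0.861 and 2.77 at 2 ng/ml. In tKO it was listed at 1.85 and 0.0203, then 1.26 and 1.06, then 0.866 and 0 FPKM. In order of their means, every group overlapped the next. By dose, the WT libraries at 2 ng/ml lay above those at 0, and the tKO libraries at 2 ng/ml lay below those at 0.2. Without the minimum level, no comparison of experiment 1 passed for this gene. In experiment 2 the vehicle libraries had 0.0557, 0.0252 and 0.0858 FPKM and the DMOG libraries 0.699, 0.523 and 0.352 FPKM. These groups did not overlap, and their means were 0.0556 ± 0.0303 and 0.525 ± 0.173 FPKM (SD, n = 3), all under 1 FPKM. The gene enters the test only when the minimum level is dropped; DMOG minus vehicle was then 0.52 on the log2 scale (adjusted p = 0.00236).

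Furin encodes the protease that cuts the TGF-b precursor, and its own transcription is known to respond to TGF-b and to HIF (chr7:87534023-87550317). Its WT levels were 14.3 and 8.12 FPKM without TGF-b, 14.1 and 14.3 at 0.2 ng/ml, and 20.7 and 13.5 at 2 ng/ml. The tKO levels were 21.3 and 13.8, then 26.3 and 29.1, then 33.7 and 23.2 FPKM. The genotypes overlapped without TGF-b and were apart at 0.2 and at 2 ng/ml, where every tKO library was higher in the summed values. Over the 3 doses Furin rose by a log2 fold change of 0.75 ± 0.17 in tKO (SE, adjusted p = 0.00588). No single dose passed, with 0.62 ± 0.30 without TGF-b (adjusted p = 0.253), 0.91 ± 0.30 at 0.2 ng/ml (0.0584) and 0.71 ± 0.30 at 2 ng/ml (0.131). The call over doses was lost without WT series 2 (0.53, adjusted p = 0.139) and without tKO series 1, the libraries with Y chromosome RNA (0.59, adjusted p = 0.0733). In experiment 1 Tgfb3 and Itgb8 had 2 entries each, and the values given are their sums. Both tables list Furin in 2 entries at the same symbol, which were summed too. The smaller entry gave 55.6% of the sum in tKO at 0.2 ng/ml replicate 2 and 0% to 16.0% in the other libraries of experiment 1. In the larger entry alone that library was at 12.9 FPKM, below both WT libraries at this dose (14.1 and 14.3), so the genotypes overlapped. From this entry the log2 fold change was 0.23 at 0.2 ng/ml (adjusted p = 0.669) and 0.46 over doses (adjusted p = 0.0931). TGF-b at 2 ng/ml against none gave 0.59 ± 0.30 in WT and 0.67 ± 0.30 in tKO, neither past the threshold (adjusted p = 0.215 and 0.144).

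With vehicle, Furin was at 61.1, 65.0 and 55.1 FPKM, and with DMOG at 121, 63.8 and 76.6 FPKM. One DMOG library was the highest and another lay within the vehicle range, so the groups overlapped. Their means were 60.4 ± 4.99 and 87.1 ± 29.9 FPKM (SD, n = 3), and the log2 fold change was 0.47 ± 0.17 (SE, adjusted p = 0.0248). Without DMOG replicate 1, the highest library, the value was 0.21 (adjusted p = 0.114), and the call was also lost without any 1 of the vehicle replicates (adjusted p = 0.0637 to 0.0744). The larger entry alone gave 0.61 (adjusted p = 0.00583).

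Lrrc32 encodes GARP, the receptor that holds latent TGF-b on the cell surface (chr7:105637580-105650340). Its WT levels were 26.2 and 22.4 FPKM without TGF-b, 20.1 and 27.2 at 0.2 ng/ml, and 14.1 and 26.1 at 2 ng/ml. The tKO levels were 2.80 and 1.30, then 6.83 and 5.76, then 17.0 and 13.0 FPKM. The WT groups overlapped each other at all doses. The tKO groups were apart from each other at all doses, lay below WT at 0 and 0.2 ng/ml, and overlapped WT at 2 ng/ml. The mean in WT without TGF-b, 24.3 ± 2.64 FPKM, was 11.9 times that in tKO, 2.05 ± 1.06 (SD, n = 2 each). Lrrc32 fell by 3.09 ± 0.32 on the log2(FPKM + 1) scale there (SE, adjusted p = 3.95e-05) and by 1.75 ± 0.32 at 0.2 ng/ml (adjusted p = 0.00239), where the WT mean was 3.76 times the tKO mean. At 2 ng/ml the log2 fold change was -0.35 ± 0.32 (adjusted p = 0.508). In bulk libraries fewer cells with a transcript and less transcript per cell cannot be told apart. Over doses Lrrc32 fell by 1.73 ± 0.18 (adjusted p = 1.14e-05), and by 1.94 without tKO series 1 (adjusted p = 0.000621).

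TGF-b changed Lrrc32 in tKO and not detectably in WT. From 0 to 2 ng/ml it rose in tKO from 2.05 to 15.0 FPKM, a ratio of means of 7.32 and a log2 fold change of 2.43 ± 0.32 (SE, n = 2 per group, adjusted p = 0.000327). Both labelled tKO series showed it, from 2.80 to 17.0 and from 1.30 to 13.0 FPKM. The WT change was -0.32 ± 0.32 (adjusted p = 0.545). The difference of the responses was itself past the threshold, at 2.75 ± 0.45 (adjusted p = 0.00655), but not without tKO replicate 1 at 2 ng/ml (2.57, adjusted p = 0.0534). At 0.2 ng/ml the tKO change was 1.30 ± 0.32 (adjusted p = 0.0510). Foxp3, the regulator that defines regulatory T cells, was at 50.9 ± 54.1 FPKM in tKO and 107 ± 48.0 in WT over the doses (SD, n = 6 from 2 series each), which was -1.98 ± 0.16 on the log2 scale (adjusted p = 9.83e-07). These SDs span the 3 doses. With the 3 doses pooled, the tKO libraries ran from 1.99 to 142 FPKM and the WT libraries from 50.5 to 168, so the pooled ranges overlapped. Pooled ranges do not show whether the genotypes overlapped at any single dose. The 8 regulatory T cell markers as a list did not move one way over doses, with 2 higher, 3 lower and 3 not passing. T cell markers summed to 1832 to 2193 FPKM in tKO and 2315 to 3173 in WT, and their part in the Lrrc32 values was not tested.

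DMOG lowered Lrrc32 at 2 ng/ml TGF-b. The vehicle libraries had 20.6, 17.6 and 18.2 FPKM and the DMOG libraries 4.55, 2.85 and 3.38 FPKM, so the groups were far apart. The mean fell from 18.8 ± 1.61 to 3.59 ± 0.871 FPKM (SD, n = 3 each), a vehicle mean 5.24 times the DMOG mean. The gene fell by 2.12 ± 0.13 on the log2 scale (SE, adjusted p = 3.19e-10). Foxp3 was at 78.9 ± 15.4 FPKM with vehicle and 8.97 ± 1.84 with DMOG, or -3.00 ± 0.15 on the log2 scale (adjusted p = 2.27e-11). The 8 regulatory T cell markers split, with 5 lower and 3 higher: the ectoenzyme gene Nt5e was at -3.01 ± 0.14 (adjusted p = 1.14e-11), while the receptor genes Il2ra and Tnfrsf18 rose by 0.98 ± 0.15 and 0.88 ± 0.13 (adjusted p = 1.93e-05 and 1.34e-05). All 7 T cell markers fell as well, with a median log2 fold change of -1.18 and sums of 2006 to 2346 FPKM with vehicle against 939 to 1219 with DMOG, and the part of this in the Lrrc32 and Nrp1 values was not tested.

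**Figure D3:**
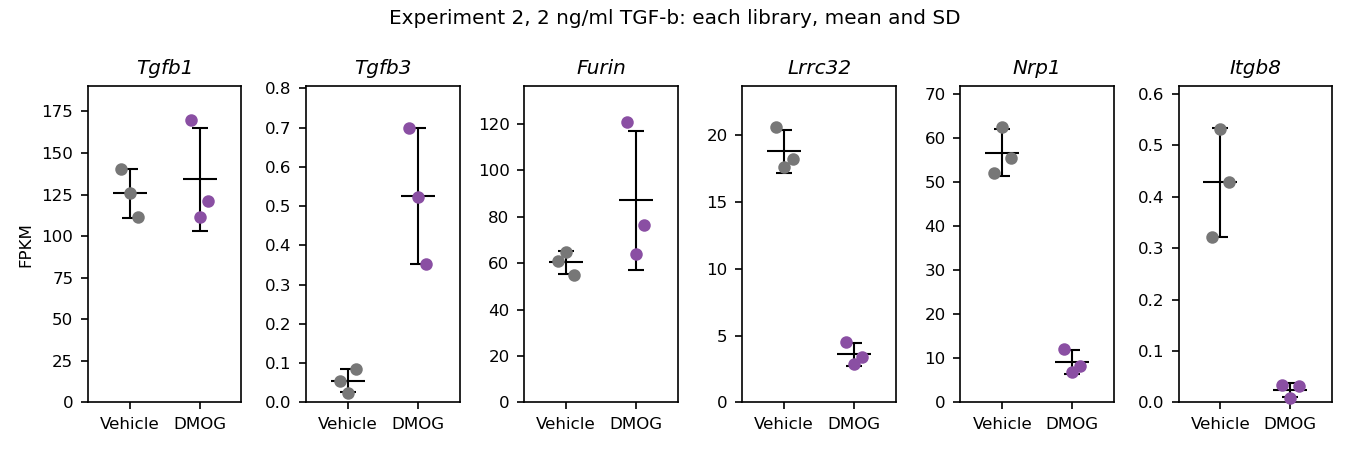
FPKM of the 6 genes (y axis, one scale per gene) in experiment 2 with vehicle or DMOG (x axis), all with 2 ng/ml TGF-b. Points are 3 libraries per group, and the horizontal marks and bars are the mean and SD; vehicle and DMOG are apart for Lrrc32, Nrp1, Tgfb3 and Itgb8 and overlap for Tgfb1 and Furin.

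Nrp1 encodes neuropilin-1, the co-receptor that binds TGF-b as well as semaphorins and VEGF (chr8:130882155-131029402). Its WT levels were 12.1 and 14.4 FPKM without TGF-b, 24.8 and 27.0 at 0.2 ng/ml, and 35.4 and 42.0 at 2 ng/ml. The tKO levels were 21.8 and 19.0, then 31.9 and 25.3, then 52.0 and 56.0 FPKM. Each dose lay apart from the next in both genotypes, in rising order. TGF-b at 2 ng/ml raised the mean from 13.2 ± 1.59 to 38.7 ± 4.66 FPKM in WT (SD, n = 2), a log2 difference of 1.48 ± 0.20 (SE, adjusted p = 0.000297). In tKO it rose from 20.4 ± 1.96 to 54.0 ± 2.83 FPKM, 1.36 ± 0.20 on the log2 scale (adjusted p = 0.000601). The difference of the responses was -0.12 (adjusted p = 0.856), which does not show that they were alike. At 0.2 ng/ml the WT rise of 0.92 ± 0.20 passed (adjusted p = 0.0313) and the tKO change of 0.46 did not (adjusted p = 0.274). Regulatory T cell markers moved in the same WT comparison of 2 with 0 ng/ml, 4 of 8 higher and 1 lower. Foxp3 went from 51.0 ± 0.600 to 144 ± 33.8 FPKM (SD, n = 2), a rise of 1.46 ± 0.28 (SE, adjusted p = 0.00376). Ikzf4, Nt5e and Ikzf2 rose by 1.92, 2.89 and 1.25 (adjusted p = 0.0001, 0.000116 and 0.0369), and Tnfrsf18 fell by 1.53 (adjusted p = 6.79e-05). The part of these markers in the Nrp1 values was not tested. The Nrp1 call in WT at 0.2 ng/ml was lost without any 1 of its 4 libraries (adjusted p = 0.104 to 0.309) and without either tKO library at 2 ng/ml (0.0675 and 0.0673).

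Nrp1 was higher in tKO than in WT over doses by 0.40 ± 0.11 (SE, adjusted p = 0.0185). The tKO libraries lay above WT at 0 and 2 ng/ml and overlapped WT at 0.2 ng/ml, with log2 fold changes of 0.59, 0.47 and 0.13, none past the threshold at its dose (adjusted p = 0.0817, 0.121 and 0.696). This call was fragile: it was lost without WT replicate 1 at 0 (adjusted p = 0.0609), 0.2 (0.0530) or 2 ng/ml (0.0508), without tKO replicate 2 at 2 ng/ml (0.0558), without WT series 1 (0.245) or 2 (0.0763), without tKO series 1 (0.0826), and with 1 mean per series (0.108). With DMOG, Nrp1 fell. The vehicle libraries had 52.1, 62.5 and 55.5 FPKM and the DMOG libraries 12.2, 6.95 and 8.32 FPKM, with no overlap. The mean fell from 56.7 ± 5.30 to 9.14 ± 2.70 FPKM (SD, n = 3), a vehicle mean 6.21 times the DMOG mean, and the gene fell by 2.54 ± 0.15 on the log2 scale (SE, adjusted p = 2.05e-10).

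Itgb8 encodes the integrin subunit that activates latent TGF-b (chr12:120401275-120476749). It was listed at 0 in both libraries of WT and of tKO without TGF-b. At 0.2 ng/ml it was listed at 0 and 0.334 FPKM in WT and 0.0540 and 0 in tKO, and at 2 ng/ml at 0.0189 and 0 FPKM in WT and 0.162 and 1.30 in tKO. The value above 1 FPKM came from 1 library, and a listed 0 need not mean absent RNA, since such a value may come from an estimate that failed. In experiment 2 the vehicle libraries had 0.322, 0.533 and 0.429 FPKM and the DMOG libraries 0.0329, 0.00854 and 0.0321 FPKM. These groups did not overlap, and without the minimum level the log2 fold change was -0.48 (adjusted p = 0.000584). The level stayed under 1 FPKM in all 6 libraries.

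Set side by side at 2 ng/ml TGF-b, the log2 fold changes of tKO against WT and of DMOG against vehicle were 0.82 and 0.07 for Tgfb1, 0.71 and 0.47 for Furin, -0.35 and -2.12 for Lrrc32, and 0.47 and -2.54 for Nrp1. The experiments share no library, were normalized separately and were sequenced on different instruments, so the difference between their fold changes was not tested. Nrp1 had opposite signs, though its tKO value at this dose did not pass the test.

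Genes around the 6 were taken from lists of the same pathway, chosen with earlier results of these data known. Of 23 genes for latent TGF-b storage, chaperones and activation, 10 were tested in experiment 1, and 5 rose and none fell in tKO over doses, with a median log2 fold change of 0.46, against 13.9% higher and 13.3% lower and a median of -0.02 over all genes tested. Itgb1, a common integrin beta chain, was at 74.2 ± 20.8 FPKM in tKO and 36.8 ± 7.50 in WT (SD, n = 6 from 2 series), 0.98 ± 0.13 on the log2 scale (SE, adjusted p = 7.9e-05). Itgav, the alpha chain that pairs with the Itgb8 product, rose by 0.80 ± 0.20 (adjusted p = 0.00796), and Hsp90b1, the chaperone that GARP needs to reach the surface, by 0.68 ± 0.09 (adjusted p = 0.000125). Plaur, the urokinase receptor, rose by 2.16 ± 0.31 and Mmp14, a membrane protease, by 0.97 ± 0.25 (adjusted p = 0.000161 and 0.0103), each with at least 1 WT library listed at 0. Itgb8, the partner of Itgav, was itself listed at or near 0 in most libraries of experiment 1. TGF-b at 2 ng/ml lowered 3 of the 10 in WT, where 7.91% of all genes were lower: Hsp90b1 fell by 0.80, Plaur fell by 2.33 and Lrrc33 fell by 1.08 (adjusted p = 0.00574, 0.0105 and 0.00913). Lrrc33, also called Nrros, is a GARP relative that presents latent TGF-b on myeloid cells. With DMOG, 4 of 10 tested genes rose and 4 fell, in a comparison where 60.8% of all genes passed (27.7% higher and 33.2% lower). Plaur rose by 3.97 ± 0.17, Thbs1, which encodes the TGF-b activator thrombospondin-1, rose by 1.34 ± 0.15, and the urokinase gene Plau fell by 2.73 ± 0.15 (adjusted p = 2.69e-12, 6.42e-07 and 5.52e-11). Nrros fell by 0.76 ± 0.13 (adjusted p = 0.000115), Itgb3 fell by 1.12 ± 0.16 and Emilin1 fell by 0.89 ± 0.11 (adjusted p = 9.4e-06 and 1.9e-06).

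Of 8 other proprotein convertases, the protease family of furin, 3 were tested in experiment 1, and none passed over doses or with TGF-b in WT. With DMOG 2 were tested and Mbtps1 fell by 0.48 ± 0.13 (SE, adjusted p = 0.00425). Of 14 neuropilin ligands and partners 5 were tested, and 3 rose in tKO over doses: Vegfa, a ligand of neuropilin-1 and a HIF target, by 2.85 ± 0.18, Sema4a by 1.16 ± 0.23 and the plexin gene Plxna1 by 0.85 ± 0.25 (adjusted p = 9.1e-08, 0.00166 and 0.0203; 13.9% of all genes higher). The Sema4a value differed by dose: without TGF-b its WT libraries, at 16.9 and 13.5 FPKM, lay above the tKO libraries, at 13.0 and 8.44 (log2 fold change -0.49, adjusted p = 0.530), and tKO minus WT was 1.25 at 0.2 ng/ml and 2.73 at 2 ng/ml (adjusted p = 0.0460 and 0.000441). With DMOG 3 of 5 rose, where 60.8% of all genes passed and 27.7% were higher: Vegfa by 2.59 ± 0.13, Sema4a by 2.09 ± 0.18 and Vegfb by 0.50 ± 0.10 (adjusted p = 2.91e-11, 1.85e-08 and 0.00054). Vegfa had the same sign in tKO over doses and with DMOG at 2 ng/ml TGF-b, while Nrp1 did not. The Nrp1 call over doses was fragile, and its tKO value at 2 ng/ml did not pass. TGF-b at 2 ng/ml lowered Sema4a in WT, from 15.2 ± 2.43 to 1.08 ± 1.25 FPKM (SD, n = 2), and Sema4a fell by 3.10 ± 0.39 on the log2 scale (SE, adjusted p = 0.000214). Of 16 genes listed as other superfamily ligands 2 were tested in experiment 1, and Inhba, which encodes an activin subunit, rose by 3.14 ± 0.33 in tKO over doses (adjusted p = 8.63e-06), with WT libraries from 0 to 1.03 FPKM. With DMOG all 3 tested rose, where 27.7% of all genes did: Inhba by 1.90 ± 0.19, Gdf11 by 0.58 ± 0.12 and Bmp1, which is a metalloprotease and no ligand despite its name, by 0.58 ± 0.16 (adjusted p = 1.96e-07, 0.000576 and 0.00447).

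**Figure D4:**
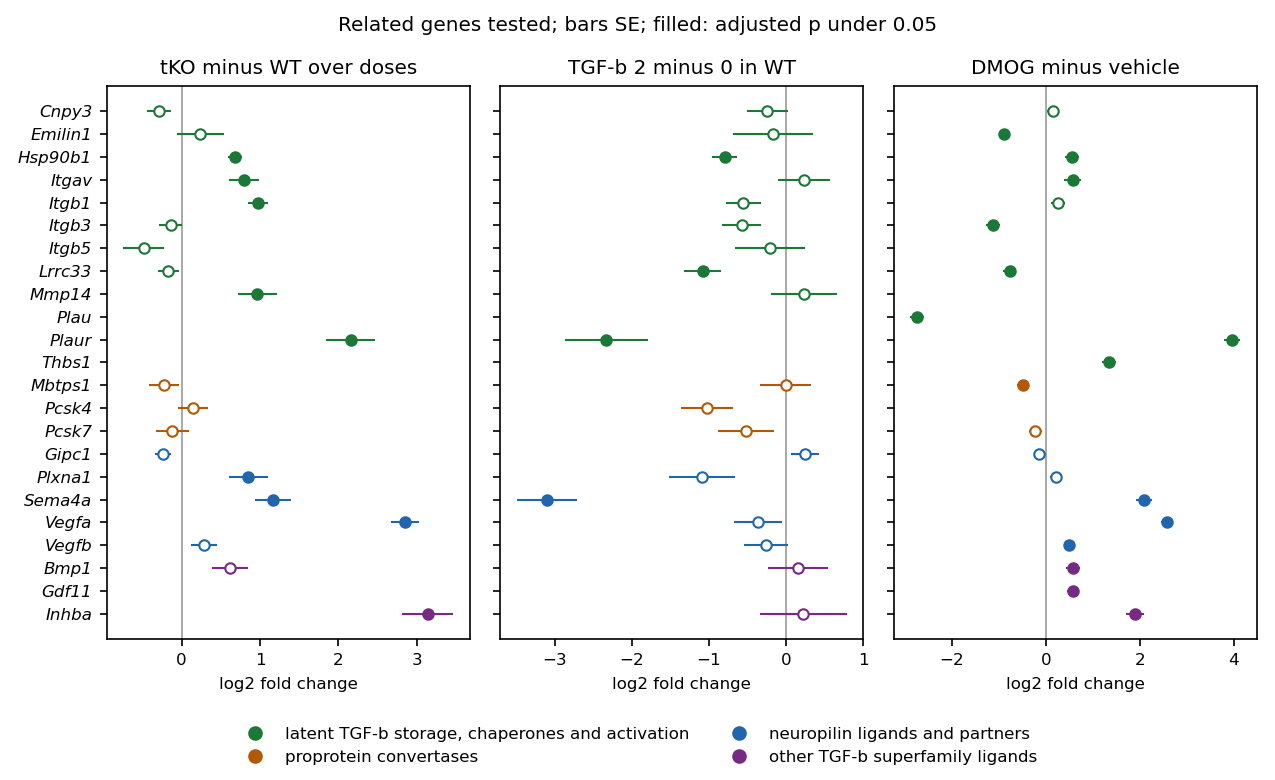
Log2 fold changes on the log2(FPKM + 1) scale (x axis) with SE bars for the tested genes of the 4 related lists (y axis, one color per list) in 3 comparisons; filled points have an adjusted p under 0.05, and a gene with no point was not tested. Plaur is at 2.16 in tKO over doses and 3.97 with DMOG, and Vegfa is at 2.85 and 2.59.

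Markers of other cells moved with some of these groups. Of 11 myeloid and dendritic cell markers 3 were tested over doses, and 1 rose, where 13.9% of all genes tested were higher. That 1 was H2-Ab1, an MHC class II gene, at 405 ± 93.1 FPKM in tKO and 91.1 ± 61.4 in WT (SD, n = 6 from 2 series). The other 2, H2-Aa and Cd74, did not pass. The list summed to 1001 to 1416 FPKM in tKO and 310 to 1078 in WT, mainly from these 3 genes. With DMOG 3 of this list were tested and they split: H2-Ab1 rose from 1.99 ± 0.939 to 38.1 ± 3.58 FPKM and Cd74 rose from 104 ± 9.83 to 225 ± 62.2 FPKM, while the integrin gene Itgam was at 6.85 ± 0.243 with vehicle and 0.0152 ± 0.00699 with DMOG (SD, n = 3; log2 fold change -2.95, adjusted p = 5.72e-14). Of this list 5 of 11 genes stayed under 1 FPKM in every library of experiment 1, Itgax at most 0.167 and Csf1r at most 0.00920. Itgam, Emr1 and Flt3 reached 2.39, 2.07 and 1.08 FPKM at most. B cell marker sums were 16.5 to 85.5 FPKM in tKO and 14.6 to 62.1 in WT, and none of the 4 tested B cell markers passed over doses. Cd79b, the 1 B cell marker tested with DMOG, was at 7.42 ± 1.77 FPKM with vehicle and 0.932 ± 0.179 with DMOG (SD, n = 3; log2 fold change -2.11, adjusted p = 4.79e-10). The CD8 T cell marker Cd8b1 was at 10.9 ± 2.47 FPKM in tKO and 6.12 ± 2.07 in WT (SD, n = 6 from 2 series; log2 fold change 0.77, adjusted p = 0.0131). Cd8a was at 2.88 ± 0.543 FPKM with DMOG and 0.632 ± 0.220 with vehicle (log2 fold change 1.25, adjusted p = 1.43e-07). Cd8b1, the other CD8 marker tested with DMOG, did not pass. The sums of both overlapped, at 6.33 to 8.49 FPKM with vehicle and 6.86 to 10.8 with DMOG. The part of these genes in the values of the 6 genes was not tested.

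The tested genes whose log2(FPKM + 1) followed each of the 4 most closely over the 12 libraries of experiment 1 are given as a description. The libraries share series, dose and depth, and the genes were picked for the highest Pearson r among all tested. For Lrrc32 they were Racgap1, Tecpr1 and Rasa1, each at r = 0.96. For Nrp1 they were Maged2 at 0.97, Ahnak at 0.94 and Ints4 at 0.94. In experiment 2, Maged2 was at a mean of 42.3 FPKM with vehicle and 21.4 with DMOG, lower like Nrp1. Ahnak was at 14.1 and 24.2 and Ints4 at 43.6 and 54.6, both higher with DMOG. For Furin they were Tet2 at 0.95 and Dusp4 and Fam168a at 0.93, and for Tgfb1 they were Triobp at 0.92, Cebpb at 0.90 and Agbl5 at 0.89.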

How the data were processed

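RNA of 18 libraries, 12 in experiment 1 and 6 in experiment 2, was prepared with RNeasy columns and the SMARTer Ultra low input chemistry, which keeps no strand information, per the labels' protocols. Values in both tables deposited by the authors are FPKM (fragments scaled to transcript length and to mapped fragments), per the file headers. Trimmomatic, TopHat, Cufflinks, Cuffdiff and mm9 are named in the submitters' processing notes; what each was used for, and its version, is not given in the sources used here. No counts were used, so absolute depth is unknown and no counting interval is given. Relative depth came from entries with a mean under 0.3 FPKM.

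Of 34309 and 23028 entries, 8483 in experiment 1 had no symbol and were left out, 17 and 291 exact duplicates were dropped, and entries of a symbol were summed. No entry joined one of the 6 genes with another gene. Tested were the 10354 and 9884 genes whose mean over the libraries of a table reached 1 FPKM, on log2(FPKM + 1), a scale that understates changes of low genes, with limma 3.58.1 in R 4.3.3: 1 coefficient per group, a mean-variance trend, all libraries of the experiment in the fit, two-sided, Benjamini-Hochberg over all genes, threshold 0.05. The procedure was tested on simulated data with libraries drawn independently, which cannot show the effect of correlation within a labelled series. Tests were made only within a table. Ratios are of mean FPKM.

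The genes and lists were chosen with earlier results of these data known. Named beside the 6 genes were, per list, up to 6 genes with the smallest adjusted p past the threshold in tKO minus WT over doses, 2 minus 0 ng/ml in WT, or DMOG minus vehicle, and the 3 genes most correlated with each tested member. Marker genes so named are printed where a result is set beside them. Alternatives were another pseudocount (0.1), no minimum level, 2 other scalings, replicate blocks, series means, only the compared groups, each library or series left out, and, chosen after seeing the data, Furin from its larger entry. Coordinates of genes are those deposited with experiment 1, on mm9, and promoter windows are on GRCm38.p6; the builds were not converted. A search for protein motifs was planned and not run.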

Additional observations from a re-analysis of the deposited data

Results flagged for a closer look

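The response of Lrrc32 to 2 ng/ml TGF-b differed between the genotypes by a test of the difference itself. The log2 change from 0 to 2 ng/ml was 2.43 ± 0.32 (SE) in tKO and -0.32 ± 0.32 in WT (n = 2 libraries per group), a difference of 2.75 ± 0.45 (limma, Benjamini-Hochberg adjusted p = 0.00655). Both tKO libraries at 2 ng/ml were above both at 0, and the WT libraries overlapped. Over 12 fits that each left out 1 library, the difference ran from 2.32 to 3.17 with adjusted p from 0.00543 to 0.0534.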

How the results depend on the processing

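None of 774 recomputed log2 fold changes of the 6 genes turned a call to the other direction, but not all of them could change. Replicate blocks, or leaving out a library outside the groups compared, kept the value and changed only its adjusted p. For Tgfb3 and Itgb8 the only alternative was the fit without the minimum level, which had also given their main values. Among the 774, calls were lost in 33 and gained in 20. In 19, a value past the threshold in neither setting changed sign, among them Tgfb1 under quantile normalization (-0.12 with DMOG, -0.04 between tKO and WT at 0.2 ng/ml, 0.05 for 0.2 minus 0 ng/ml in WT). Lrrc32 kept its calls between tKO and WT over doses, at 0 and at 0.2 ng/ml and with DMOG, and Nrp1 kept those of 2 minus 0 ng/ml in both genotypes and with DMOG, under every alternative run.

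With no minimum level, the number of genes passing was 0 in place of 1 for 0.2 minus 0 ng/ml in WT (Nrp1, adjusted p = 0.0607) and 0 in place of 1 for the genotype difference of the 2 minus 0 effect (Lrrc32, 0.0510), and Furin with DMOG had 0.142. The cause was not tested. Under quantile normalization 2 passed between tKO and WT at 0.2 ng/ml (Furin, 0.0452) and 2 for the genotype difference (Tgfb1, 0.0172), and Furin with DMOG had 0.102. With a pseudocount of 0.1, 1 passed for 0.2 minus 0 ng/ml in tKO (Lrrc32, 0.0368). With only the compared groups in the fit, 0 passed for 0.2 minus 0 ng/ml in WT (Nrp1, 0.0802) and 2 for the genotype difference (Tgfb1, 0.0438); that fit has fewer libraries.

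Whether replicate numbers pair libraries across genotypes or in experiment 2 was not settled by the values. Same-numbered deviations from group means correlated at r = -0.106 to 0.255 over 9 pairs of groups of different genotypes. In experiment 2 they correlated at -0.194 to 0.443 over 3 numbers. Within a genotype the values were all positive, at r = 0.057 to 0.416 over 6 pairs of groups. This range overlapped the one across genotypes, and its highest value came from tKO at 0 and 0.2 ng/ml. In tKO the number also marked a shared trait, since only the 3 libraries of series 1 held Y chromosome RNA. With the number as a replicate block, 2 of the genes passed between tKO and WT at 0.2 ng/ml (Furin, adjusted p = 0.0210), 1 for 0.2 minus 0 ng/ml in tKO (Lrrc32, 0.0477) and 2 for the genotype difference (Tgfb1, 0.0424), Tgfb1 passed over doses (0.0466), and Furin with DMOG did not (0.0619). With the labelled series as a replicate block, 1 passed for 0.2 minus 0 ng/ml in tKO (Lrrc32, 0.0176) and 2 for the genotype difference (Tgfb1, 0.0380). With 1 mean per series, Lrrc32 and Furin passed between tKO and WT over doses (adjusted p = 0.000135 and 0.0204). Nrp1 and Tgfb1 did not (0.108 and 0.200).

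Leaving out each library or series, the number of the genes passing ran from 1 to 4 over doses, from 1 to 2 at 0, 1 to 2 at 0.2 and 0 to 1 at 2 ng/ml between tKO and WT, from 0 to 1 for 0.2 minus 0 ng/ml in WT, 0 to 1 for the same in tKO, 0 to 2 for the genotype difference. Over all genes, where these counts moved by over 1.5 times, they ran from 1303 to 3209 over doses (2817 with all libraries), 513 to 1235 at 0 (998), 749 to 2667 at 0.2 (1604), 717 to 2160 at 2 ng/ml (1655), 31 to 237 for 0.2 minus 0 (165) and 660 to 2091 for 2 minus 0 ng/ml in WT (1626), 108 to 708 (257) and 579 to 2388 (1867) in tKO, and 78 to 719 for the genotype difference (308). Other alternatives gave 1840 over doses with series means; 72 without a minimum level, 283 with the series block and 81 with only the compared groups for 0.2 minus 0 ng/ml in WT; 413 with the series block and 27 with only the compared groups in tKO; 157, 512, 686 and 511 for the genotype difference with no minimum level, the number block, the series block and only the compared groups; and 631 at 0.2 ng/ml with only the compared groups.

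With 2 libraries per group, precision is limited, and changes of Tgfb3 and Itgb8, near or under 1 FPKM, were not detectable in experiment 1.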
